A study of Mus musculus with 6 samples.

Results

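Genes of erythropoietin reception and iron handling, 10 in all and chosen by symbol, were followed in c-Kit+ bone marrow cells of the mouse: Epor, Tfrc, Slc25a37, Slc11a2, Slc40a1, Steap3, Fth1, Ireb2, Car1 and Car2. All 10 are among the 20097 genes listed in the deposited files, and all 10 passed the filter on low values that left 15410 genes for testing. RNA of c-Kit+ cells, which are selected for the receptor tyrosine kinase of stem and progenitor cells, was sequenced in 3 WT libraries and in 3 that carry the label Runx1 KO, a knockout of a transcription factor of blood formation. The age and sex of the mice, the allele and any driver of the knockout are not given in the labels, which also do not say whether the libraries of a group came from separate animals, so the p-values measure only the spread between these samples. Values are normalised read counts, that is, reads per gene divided by a size factor of the library.

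Erythropoietin binds the receptor encoded by Epor on red cell progenitors and signals through the kinase JAK2 and the factors STAT5A and STAT5B. The same progenitors take up iron bound to transferrin through the transferrin receptor, reduce it in the endosome, move it to the cytosol and into mitochondria for heme, store the surplus in ferritin and can release it through ferroportin. Iron regulatory proteins bind hairpins called iron-responsive elements in some of these mRNAs: a hairpin in the 5′ UTR blocks translation, and hairpins in the 3′ UTR protect the mRNA from decay, when iron is scarce.

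These hairpins are shown first, for those of the 10 mRNAs that hold a strict form of the element. UTRs of protein-coding genes in GENCODE release M21, on GRCm38, were searched on the transcript strand for a C, then 5 stem bases, the loop CAGTGN of 6 bases and 5 bases that pair with the stem, G-T pairs allowed. A match was found in 127 of 14417 genes, or 0.881%, and in 3 of the 10, with 1 in the 5′ UTR of Fth1, 1 in the 5′ UTR of Slc40a1 and 4 in the 3′ UTR of Tfrc. The match in Ftl1, the light ferritin chain, is printed beside that of Fth1. Capitals mark the loop, and the sequences are written 5′ to 3′ along the transcript.
Fth1, chr19:9982732-9982760, plus strand: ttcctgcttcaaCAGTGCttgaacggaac
Ftl1, chr7:45459779-45459807, minus strand: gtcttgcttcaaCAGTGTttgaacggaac
Slc40a1, chr1:45925465-45925493, minus strand: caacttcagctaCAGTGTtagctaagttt
Tfrc, chr16:32631219-32631247, plus strand: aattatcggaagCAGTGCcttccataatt
Tfrc, chr16:32631598-32631626, plus strand: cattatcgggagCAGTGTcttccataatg
Tfrc, chr16:32631663-32631691, plus strand: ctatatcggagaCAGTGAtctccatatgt
Tfrc, chr16:32631710-32631738, plus strand: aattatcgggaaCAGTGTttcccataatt
The other 7 genes, Slc11a2 among them, held no such letters in the annotated UTRs searched. An element with an unpaired base among the 5 stem positions would be missed, so the search does not show that these genes lack one. A match describes letters in the annotation and not binding.

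The libraries held between 23297526 and 26793380 reads recovered from the values. Across genes, Pearson's r was 0.979 to 0.990 within a group and 0.934 to 0.970 between groups. Kit, which defines the sorted cells, was high in every library and itself differed, at 8301 ± 280 in WT and 12649 ± 1093 in the KO-labelled libraries, a log2 change of 0.60 (limma adjusted p = 0.00346). Runx1 itself went against the label: it stood at 3031, 2799 and 3497 in the WT libraries and at 6648, 6720 and 5830 in those labelled Runx1 KO, a log2 change of 1.04 (SE 0.10, limma adjusted p = 0.00163). A count over the whole gene does not show which exons the reads came from, and the deleted part is not given in the labels. Directions below are therefore between the libraries labelled Runx1 KO and the libraries labelled WT.

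Between these groups none of the 10 genes passed an adjusted p of 0.05 in limma, in either direction, against 21.9% of all genes tested (10.6% higher and 11.3% lower). At an unadjusted p under 0.05, 4 of the 10 passed, namely Epor, Slc11a2 and Slc25a37 with higher and Slc40a1 with lower means, where 37.7% of all genes did. On the recovered reads, edgeR's quasi-likelihood test called 1 of them, Slc11a2, higher and none lower, where it called 10.6% of all genes higher and 10.5% lower. DESeq2 called Epor and Slc11a2 higher and Slc40a1 lower, where it called 11.6% of all genes higher and 13.8% lower, and limma-voom called none of the 10. The KO-labelled libraries did not overlap the WT libraries for 2 of the 10, both higher, and for none lower, where 21.4% of all genes were higher without overlap and 21.9% lower. The median log2 change was 0.13 over the 10 genes and -0.00424 over all genes tested. The estimates of single genes ran from -0.59 for Slc40a1 to 0.68 for Epor, and most had wide intervals.

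**Figure D1:**
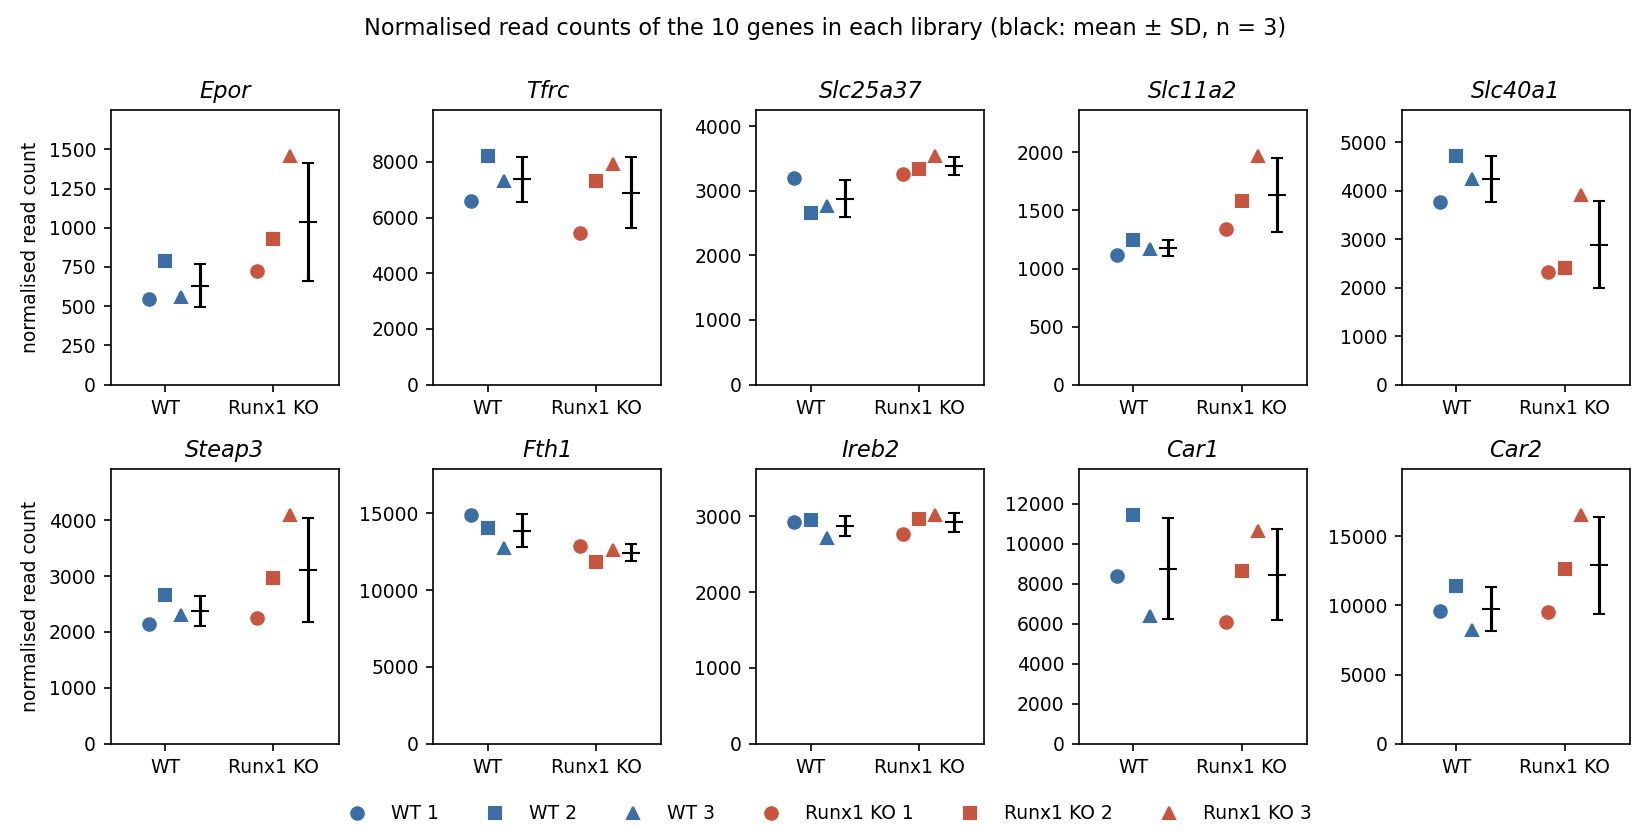
Normalised read count (vertical axes, each from 0) of each of the 10 genes in the 3 WT and 3 KO-labelled libraries, with 1 marker per library and black bars for the mean ± SD (n = 3). Replicate 3 of the KO-labelled group is the highest of that group, and replicate 1 the lowest, for every gene but Fth1. Replicate 3 stands at 1458 for Epor, 4090 for Steap3 and 16526 for Car2. Fth1 and Ireb2 vary little.

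Epor (ENSMUSG00000006235, chromosome 9, 21958897 to 21963506, minus strand), the receptor through which erythropoietin keeps red cell progenitors alive, stood at 548, 788 and 559 in the WT libraries and at 726, 931 and 1458 in the KO-labelled ones. WT replicate 2 lay above KO-labelled replicate 1, so the groups overlapped, and the coefficient of variation was 36.4% in the KO-labelled libraries against 21.4% in the WT libraries. The means were 632 ± 135 and 1038 ± 378 (SD, n = 3), a log2 change of 0.68 (SE 0.26, 95% interval 0.06 to 1.29) with a limma adjusted p of 0.107. DESeq2 gave an adjusted p of 0.0281 and edgeR 0.0968. Without KO-labelled replicate 1 the log2 change was 0.90 and limma's adjusted p 0.0394, whereas without KO-labelled replicate 3 the change was 0.40 and the adjusted p 0.237. The other 4 fits without 1 library did not call it.

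Klf1 and Gata1, transcription factors of red cell progenitors chosen here after their values were seen, moved with Epor from library to library. The ratio of Epor to Klf1 was 0.495, 0.521 and 0.456 in the WT libraries and 0.479, 0.468 and 0.461 in the KO-labelled ones, so the groups overlapped and the whole range was narrow beside that of Epor itself. The ratio of Epor to Gata1 ran from 0.369 to 0.428 in WT and from 0.379 to 0.477 in the KO-labelled libraries, again with overlap. Summed over 18 listed early erythroid markers, the level was 31478 to 42451 in WT and 44856 to 73673 in the KO-labelled libraries, highest in KO-labelled replicate 3, which also had the most Epor. Of these markers 5 of 18 passed higher and none lower, where 10.6% and 11.3% of all genes did, and the median log2 change was 0.54. Several of them, among them Gata1, are also expressed in megakaryocytes, and of 16 tested megakaryocyte markers 10 passed higher and none lower, with a median of 0.86. Their summed level, 7605 to 25124 in WT and 10054 to 15045 in the KO-labelled libraries, overlapped only through WT replicate 1. There Thbs1 alone held 18629 of the 25124, against 1962 and 2213 in WT replicates 2 and 3. The sums of WT replicates 2 and 3, at 7605 and 8834, lay under those of all KO-labelled libraries. Of 11 tested mast cell and basophil markers 6 passed lower and none higher, with a median of -1.40. In bulk RNA, more cells of a type and more RNA per cell cannot be told apart, and the part of these markers in the Epor values was not tested.

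The genes whose log2 values were most like those of Epor over the 6 libraries were Pla2g12a (Pearson's r 0.997), Pygo2 (0.996) and Cyth3 (0.996). Those 3 also peaked in KO-labelled replicate 3, at 1191, 2217 and 3170 normalised reads, and none of them passed the test between the groups. The r values describe 6 libraries that share the difference between the groups.

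Tfrc (ENSMUSG00000022797, chromosome 16, 32608920 to 32632794, plus strand) encodes the transferrin receptor that brings iron into the cell. It stood at 6607, 8214 and 7304 in the WT libraries and at 5455, 7328 and 7913 in the KO-labelled ones. The groups overlapped, with KO-labelled replicate 1 the lowest of all 6. The log2 change was -0.11 (SE 0.15, 95% interval -0.46 to 0.24, limma adjusted p = 0.629), an interval that leaves room for a modest difference either way.

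Steap3 (ENSMUSG00000026389, chromosome 1, 120190757 to 120272705, minus strand) encodes the endosomal reductase that turns ferric into ferrous iron after uptake. It stood at 2148, 2661 and 2303 in WT and at 2254, 2969 and 4090 in the KO-labelled libraries, which overlapped. Its log2 change was 0.35 (SE 0.20, 95% interval -0.13 to 0.83, limma adjusted p = 0.252). Without KO-labelled replicate 1 the log2 change was 0.56 with an adjusted p of 0.0451, and without KO-labelled replicate 3 it was 0.13 with an adjusted p of 0.593.

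Slc11a2 (ENSMUSG00000023030, chromosome 15, 100387898 to 100425072, minus strand) encodes DMT1, the transporter that carries ferrous iron out of the endosome. It stood at 1114, 1248 and 1172 in the WT libraries and at 1342, 1586 and 1969 in the KO-labelled ones. Every KO-labelled library was above every WT library, and the WT libraries were tight (coefficient of variation 5.72% against 19.4%). The means were 1178 ± 67.3 and 1632 ± 316 (SD, n = 3), 1.37 times higher on the fitted scale, with a log2 change of 0.45 (SE 0.14, 95% interval 0.13 to 0.78). The limma adjusted p was 0.0541, edgeR's 0.0487 and DESeq2's 0.0110, so the gene lay at the threshold. Within a tool the scaling also moved it across: limma gave 0.0320 with library totals as scaling, and edgeR 0.0525 with DESeq2 size factors in place of TMM. Without KO-labelled replicate 1 the log2 change was 0.59 with a limma adjusted p of 0.0148, and the other 5 fits without 1 library gave adjusted p from 0.0963 to 0.138, with a change down to 0.31 without KO-labelled replicate 3. A gene on the other strand, Gm5475, overlaps Slc11a2 and is not analysed here, and whether counting used the strand is not given in the sources used here.

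Slc25a37 (ENSMUSG00000034248, chromosome 14, 69241848 to 69285112, minus strand) encodes mitoferrin 1, the carrier that imports iron into the mitochondria of red cell precursors. It stood at 3197, 2659 and 2760 in WT and at 3266, 3332 and 3537 in the KO-labelled libraries. The groups did not overlap, although WT replicate 1 came close to KO-labelled replicate 1. The means were 2872 ± 286 and 3378 ± 141 (SD, n = 3), a log2 change of 0.24 (SE 0.08, 95% interval 0.05 to 0.43) with a limma adjusted p of 0.0779. Without WT replicate 1 the log2 change was 0.32 and the adjusted p 0.0258, and the other fits without 1 library gave 0.18 to 0.26 with adjusted p from 0.0917 to 0.216. Antisense genes (Gm27222 and Gm27223) overlap this locus too, as do Gm31748 on the other strand and Gm20236 on the same strand. None of them is analysed here. Its ubiquitous paralog Slc25a28, mitoferrin 2, had a log2 change of 0.19 (adjusted p = 0.107), and the ratio of Slc25a37 to Slc25a28 overlapped between the groups, at 3.33 ± 0.31 in WT and 3.44 ± 0.25 in the KO-labelled libraries.

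Slc40a1 (ENSMUSG00000025993, chromosome 1, 45908068 to 45926523, minus strand) encodes ferroportin, the exporter through which cells release iron, and is the only one of the 10 with a lower mean at an unadjusted p under 0.05. It stood at 3758, 4715 and 4238 in the WT libraries and at 2314, 2413 and 3918 in the KO-labelled ones. KO-labelled replicates 1 and 2 were well under all WT libraries, while replicate 3 lay above WT replicate 1. The means were 4237 ± 479 and 2882 ± 899 (SD, n = 3), a log2 change of -0.59 (SE 0.20, 95% interval -1.07 to -0.12) with a limma adjusted p of 0.0764. Without KO-labelled replicate 3 the log2 change was -0.84 and the adjusted p 0.0108, and the other fits without 1 library ran from -0.68 (without WT replicate 1, adjusted p = 0.0935) to -0.46 (without KO-labelled replicate 1, 0.158). DESeq2 gave 0.0225 and edgeR 0.102.

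Macrophages also express ferroportin, so markers of that cell type are given here. Summed over 19 listed macrophage markers, of which none was at or under 3 reads in all libraries, the level was 66188 to 73537 in WT and 40016 to 56738 in the KO-labelled libraries. Much of that sum was Lyz2, which granulocytes express too. Over the other 18 markers the groups overlapped, at 30098 to 36934 in WT and 24529 to 30931 in the KO-labelled libraries. KO-labelled replicates 1, 2 and 3 stood at 30279, 24529 and 30931 there. Slc40a1 was lowest in replicate 1 and highest in replicate 3 of that group. Of the 19, 4 passed lower (Adgre1, Cd68, Timd4 and Lyz2, named after their values were seen) and none higher, where 11.3% of all genes passed lower. The remaining 15 did not pass, and the median log2 change was -0.46. The part of these markers in the Slc40a1 values was not tested.

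Fth1 (ENSMUSG00000024661, chromosome 19, 9980598 to 9985098, plus strand) encodes the heavy chain of ferritin, which oxidises and stores iron. It stood at 14878, 14009 and 12738 in WT and at 12891, 11794 and 12625 in the KO-labelled libraries, with overlap. Its log2 change was -0.16 (SE 0.07, 95% interval -0.33 to 0.02, limma adjusted p = 0.171), a narrow interval for a gene of this depth. Processed copies of ferritin genes are scattered over the genome, and how the counting shared reads between copies is not stated; the listed copy Fth-ps2 held 1.05 to 4.95 normalised reads.

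Ftl1, the light ferritin chain, fell: it stood at 3302, 3616 and 3445 in the WT libraries and at 2635, 2316 and 2405 in the KO-labelled ones. Its log2 change was -0.50 (SE 0.07, limma adjusted p = 0.00490), and the call held in each fit without 1 library. The ratio of Fth1 to Ftl1 was 4.51, 3.87 and 3.70 in WT and 4.89, 5.09 and 5.25 in the KO-labelled libraries. The groups did not overlap, so the RNA of the heavy chain was more abundant relative to the light chain in each KO-labelled library. This ratio was chosen after values were seen, with no share of other gene pairs to set beside it. The copy Ftl1-ps1, at 119 ± 12.4 in WT and 77.4 ± 32.6 in the KO-labelled libraries, did not pass the test (log2 change -0.68, adjusted p = 0.127).

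Ireb2 (ENSMUSG00000032293, chromosome 9, 54863789 to 54912530, plus strand) encodes IRP2, an iron regulatory protein that binds such hairpins and is degraded when iron is plentiful. It had the smallest estimated change of the 10, at 2928, 2957 and 2718 in WT and at 2771, 2969 and 3015 in the KO-labelled libraries. The log2 change was 0.03 (SE 0.06, 95% interval -0.12 to 0.17, limma adjusted p = 0.799). Aco1, which encodes the partner protein IRP1, had a log2 change of 0.14 (adjusted p = 0.220).

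Car1 (ENSMUSG00000027556, chromosome 3, 14766216 to 14808368, minus strand) and Car2 (ENSMUSG00000027562, chromosome 3, 14886273 to 14900770, plus strand) encode the cytosolic carbonic anhydrases of the red cell lineage and lie in 1 gene cluster. Car1 stood at 8396, 11432 and 6410 in the WT libraries and at 6086, 8636 and 10617 in the KO-labelled ones, with almost the same range in both groups. Its log2 change was -0.05 (SE 0.26, 95% interval -0.65 to 0.56, limma adjusted p = 0.912), an interval of 0.637 to 1.47 as a fold. A processed pseudogene on the same strand, Gm16399, overlaps Car1 and is not analysed here.

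Car2 stood at 9593, 11422 and 8248 in WT and at 9551, 12611 and 16526 in the KO-labelled libraries, which overlapped. Its log2 change was 0.38 (SE 0.20, 95% interval -0.10 to 0.86, limma adjusted p = 0.221). The ratio of Car2 to Car1 within a library varied less than either gene: it was 1.14, 0.999 and 1.29 in WT and 1.57, 1.46 and 1.56 in the KO-labelled libraries, without overlap. It too was chosen after values were seen and has no share of other gene pairs beside it. Of the neighbours in the cluster, Car13 fell, with a log2 change of -0.42 (SE 0.12, limma adjusted p = 0.0456), but it was called in none of the 6 fits that left out 1 library (adjusted p from 0.0502 to 0.159). Car3 had a log2 change of -0.28 (adjusted p = 0.348). The genes most like Car1 over the 6 libraries were 9330020H09Rik (Pearson's r 0.995), Eif4enif1 (0.987) and Ccar1 (0.978), none of which passed the test.

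**Figure D2:**
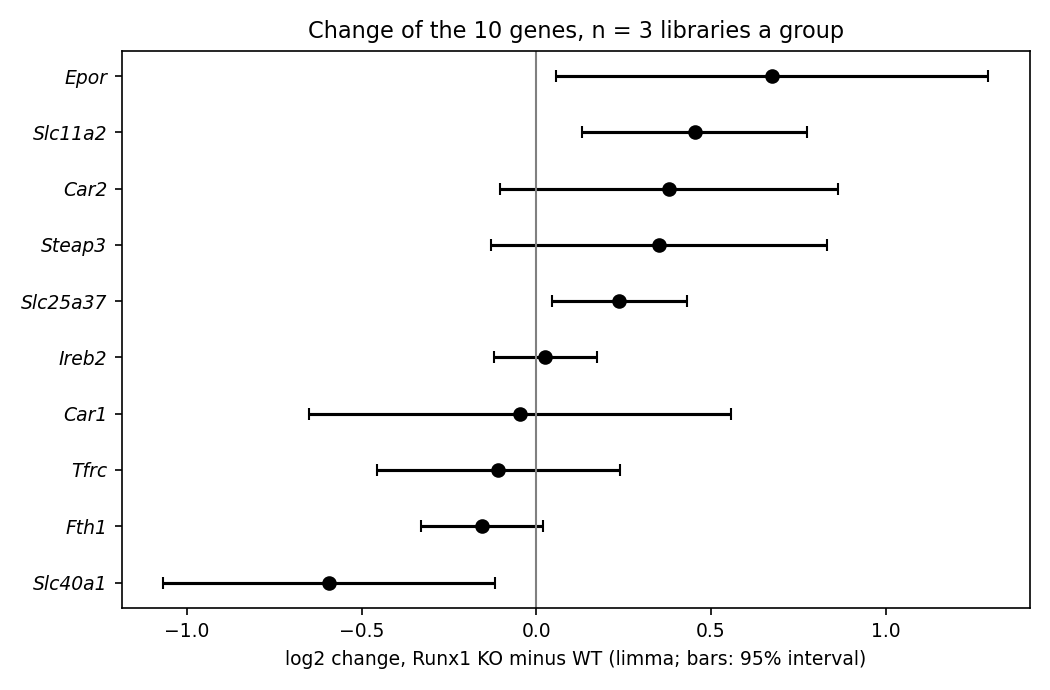
Log2 change of each of the 10 genes (horizontal axis, KO-labelled minus WT, from limma), with dots for the estimate and bars for the 95% interval, 3 libraries a group. The intervals of Epor, Slc11a2 and Slc25a37 lie above 0 and that of Slc40a1 lies under it before adjustment over all genes, and those of Car1 and Epor are wide.

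Levels of different genes were compared per kilobase of the longest principal transcript in GENCODE M21. By that length Fth1 was the most abundant of the 10 in WT, at 9287 ± 720 normalised reads per kilobase (SD, n = 3), at percentile 99.1 of 12677 tested genes with such a transcript. Car1 (7325 ± 2118) and Car2 (5456 ± 891) came next, and the ranges of Fth1 and Car1 and of Car1 and Car2 overlapped. Tfrc (1508 ± 165) and Slc40a1 (1257 ± 142) followed and overlapped each other, at a level well under that of Car2. Slc25a37 stood at 688 ± 68.6, apart from its neighbours on both sides. The order depended on the length used: per kilobase of all exons of the gene, Car1 led at 7008 ± 2026, ahead of Car2 (4028 ± 658) and Fth1 (4000 ± 310.2), and Slc11a2 was the lowest (185 ± 10.6).

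The lowest part of the order held Ireb2 (497 ± 22.5) and Steap3 (460 ± 51.0), which overlapped, and then Slc11a2 (390 ± 22.3) and Epor (359 ± 76.9), which overlapped too. Epor, at percentile 53.9, was near the middle of all genes by level, while Fth1, Car1 and Car2 stood at percentiles 99.1, 98.7 and 98.1. In the KO-labelled libraries Epor stood at 590 ± 215 normalised reads per kilobase, Slc11a2 at 540 ± 105 and Slc40a1 at 855 ± 267.

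Many pairs of the 10 moved together within groups, and the highest r values are given first. Pairs not listed below were also high, such as Ireb2 and Car1 (0.937) or Tfrc and Steap3 (0.930). The share of other gene pairs with such r is not given here. Deviations of the log2 values from the group means, over the 6 libraries, correlated with r of 0.997 for Slc11a2 and Steap3, 0.973 for Epor and Steap3, 0.960 for Car1 and Car2, 0.957 for Epor and Slc11a2 and 0.954 for Epor and Car2. Epor and Slc40a1 correlated with r of 0.932 within groups, although over the 6 libraries with the group difference left in r was -0.0914. Slc25a37 and Fth1 did not follow Epor within groups, with r of 0.0178 and 0.00702. These values describe 6 libraries in 2 groups, whose points share the library and its cell composition.

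As several of the genes moved together from library to library, each was also set against Epor in the same library, a choice made after the values were seen and so given with no test. Relative to Epor, 6 of the other 9 genes were lower in every KO-labelled library than in any WT library, namely Tfrc, Slc40a1, Steap3, Fth1, Car1 and Car2, where 34.7% of all genes were. None of the 9 was higher without overlap, where 0.999% of all genes were. Slc40a1 had the clearest gap: 6.86, 5.98 and 7.58 reads per read of Epor in WT against 3.19, 2.59 and 2.69 in the KO-labelled libraries. Tfrc stood at 12.1, 10.4 and 13.1 against 7.51, 7.87 and 5.43, and Car1 at 15.3, 14.5 and 11.5 against 8.38, 9.28 and 7.28. For Fth1 the groups all but touched, at 17.78 in the lowest WT library and 17.76 in the highest KO-labelled one. Slc11a2, Slc25a37 and Ireb2 overlapped between the groups. As Epor itself had the higher mean in the KO-labelled libraries, the ratio of an unchanged gene to it is lower there.

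A pair of ratios of iron entry to iron exit and storage were added in the same way. Slc40a1 relative to Tfrc was nearly constant in WT, at 0.569, 0.574 and 0.580, and lower in each KO-labelled library, at 0.424, 0.329 and 0.495. The share of other gene pairs that separate in this way is not given here. Tfrc relative to Fth1 overlapped, at 0.535 ± 0.079 in WT and 0.557 ± 0.116 in the KO-labelled libraries. KO-labelled replicate 3, whose level of Slc40a1 lay inside the WT range, was under all WT libraries in its ratio to Tfrc.

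**Figure D3:**
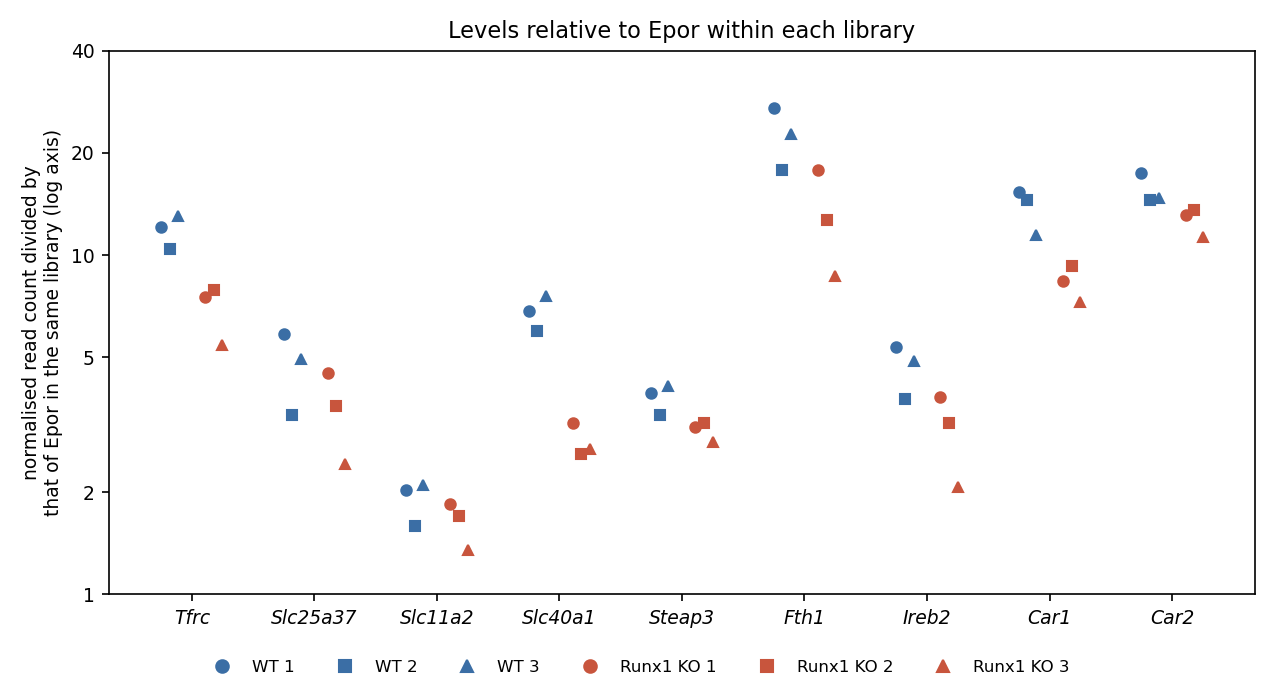
Normalised read count of each of the other 9 genes divided by that of Epor in the same library (vertical log axis, no unit), with 1 marker per library. The WT and KO-labelled libraries are apart for Tfrc, Slc40a1, Steap3, Car1 and Car2, and only just for Fth1 (lowest WT 17.78, highest KO-labelled 17.76). The gap is widest for Slc40a1 (5.98 to 7.58 against 2.59 to 3.19).

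Promoter windows of Epor and Steap3 are shown because these 2 genes varied together within groups and both windows hold letters that RUNX and GATA factors recognise. They were thus picked for these letters. Tfrc also varied with Epor (r 0.888) and Steap3 (r 0.930) within groups, and its windows held no RUNX or GATA letters. For Slc11a2, which varied most closely with Steap3, no window was available. In the RefSeq table for GRCm38.p6, 5 of the 10 genes matched (Epor, Steap3, Ireb2, Tfrc and Fth1), with 10 windows of 250 bases before a start. The windows were searched on both strands for the RUNX letters TGTGGT, for the GATA letters AGATAA or TGATAA, and for the letters CCACACCC or CCGCACCC of KLF factors. The RUNX letters were in 2 of the 10 windows and in 14.0% of all 32851 windows, the GATA letters in 2 and in 16.6%, and the KLF letters in 1, a window of Tfrc, and in 4.68%. The other 3 windows of Steap3 held none of these letters. Capitals mark the matches; in Steap3 a pair of RUNX matches overlap by 1 base.
Epor, chr9:21963577-21963826, minus strand: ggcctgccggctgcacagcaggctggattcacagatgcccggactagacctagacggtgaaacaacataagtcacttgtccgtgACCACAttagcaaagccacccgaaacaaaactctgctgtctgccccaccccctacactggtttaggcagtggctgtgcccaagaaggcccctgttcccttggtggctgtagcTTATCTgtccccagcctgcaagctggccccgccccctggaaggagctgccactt
Steap3, chr1:120271081-120271330, minus strand: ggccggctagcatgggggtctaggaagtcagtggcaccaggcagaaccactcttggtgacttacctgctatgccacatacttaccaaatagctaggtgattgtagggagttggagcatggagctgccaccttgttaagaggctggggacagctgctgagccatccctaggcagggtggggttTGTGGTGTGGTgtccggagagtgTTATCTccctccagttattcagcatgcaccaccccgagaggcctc
Counted from the start of transcription, the RUNX match of Epor begins at -166 and its GATA match at -54, and in Steap3 the RUNX matches begin at -68 and -63 and the GATA match at -45. A match is a description of letters, and no binding was measured here.

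The receptor's signalling partners were taken from a list of 26 tested genes. Of them 7 passed higher and 2 lower in limma, where 10.6% of all genes passed higher and 11.3% lower, and the median log2 change was -0.000475. Stat5a, at 2970, 3316 and 3099 in WT and 3858, 4293 and 4232 in the KO-labelled libraries, rose by a log2 of 0.40 (SE 0.07, adjusted p = 0.00929), and Stat5b by 0.43 (SE 0.06, adjusted p = 0.00583). Jak2 rose less, by 0.22 (SE 0.05, adjusted p = 0.0286), and kept its call only without WT replicate 1 among the fits that left out 1 library (adjusted p from 0.0398 to 0.117). Cish, an inhibitor induced by STAT5, rose by 0.97 and the docking protein gene Gab1 by 0.94. The inhibitor genes Socs1, Socs2 and Socs3 did not pass (log2 changes 0.43, 0.78 and -0.13). Bcl2l1, Pim1 and Erfe of the same list did not pass either (-0.16, -0.34 and -0.78). Of the 26 genes, 13 had a positive and 13 a negative log2 change.

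Ptpn6, the phosphatase SHP-1 that dephosphorylates the receptor complex, fell by 0.55 on the log2 scale (adjusted p = 0.00830). Lyn, a kinase of the Src family that takes part in the receptor's signalling, fell by 0.67 (adjusted p = 0.0139). Stat5a, Stat5b, Gab1 and Ptpn6 were called in each fit without 1 library. Cish lost its call without WT replicate 2 (adjusted p = 0.0618), WT replicate 3 (0.0584) or KO-labelled replicate 2 (0.0721), and Lyn without KO-labelled replicate 2 (0.0593).

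Of 20 tested genes of iron uptake and release, 2 passed higher and 5 lower, with a median of -0.14, beside the same 10.6% and 11.3% of all genes. Tfr2, the second transferrin receptor, which also associates with the erythropoietin receptor in red cell progenitors, stood at 1074, 1716 and 1486 in WT and at 2258, 2417 and 3360.5 in the KO-labelled libraries. All KO-labelled libraries were above all WT libraries, and its log2 change was 0.91 (SE 0.21, adjusted p = 0.0225). The call was lost without WT replicate 3 (0.0537), KO-labelled replicate 2 (0.0615) or KO-labelled replicate 3 (0.0620). Relative to Epor, Tfr2 overlapped between the groups, at 2.27 ± 0.36 and 2.67 ± 0.41.

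Hfe, whose product binds the transferrin receptor, fell by 1.04 on the log2 scale (SE 0.12, adjusted p = 0.00326) and did so in each fit without 1 library. Lcn2, a siderophore binder of granulocytes, fell by 2.42 on the log2 scale. The ferroxidase gene Cp fell by 1.15 and the metalloreductase gene Steap4 fell by 3.90. The calls of Lcn2 and Cp were lost without KO-labelled replicate 2 (adjusted p = 0.05003 and 0.0564), and Steap4 kept its call only without KO-labelled replicate 1 (0.0111, against 0.0730 to 0.149). With all libraries kept, Steap4 was called in 5 of 12 alternatives, and not in edgeR (0.0713), DESeq2 (0.0512) or limma-voom (0.0841).

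Of 23 tested genes of iron storage, sensing and heme breakdown, 2 passed higher and 3 lower, with a median of -0.07, a share close to the 21.9% of all genes called in either direction. Beside Ftl1, the heme oxygenase gene Hmox1 fell by 1.12 on the log2 scale (SE 0.31, adjusted p = 0.0439), from 1923, 3810 and 3525 in WT to 1201, 1055.5 and 1962 in the KO-labelled libraries, with WT replicate 1 inside the range of the latter. It lost the call without WT replicate 2, WT replicate 3, KO-labelled replicate 1 or KO-labelled replicate 2 (adjusted p = 0.127, 0.118, 0.0879 and 0.141). Macrophages express Hmox1 too, their marker values are given above, and the part of these markers in the Hmox1 values was not tested. Pcbp3, of the family of iron chaperones, rose by 0.81 and Zfp36l2, which binds AU-rich mRNA, by 0.75, both in each fit without 1 library. Of 7 tested carbonic anhydrase genes other than Car1 and Car2, Car13 was the only one to pass, and the median was 0.11.

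By median and summed level, markers of the last steps of red cell formation went the other way from those of the early steps. Of 19 tested late erythroid markers 2 passed higher and 8 lower, where 10.6% and 11.3% of all genes did. The other 9 did not pass, 8 of the 19 had a positive log2 change, and the median was -0.34. Their summed level was 32474 to 45572 in WT and 26227 to 28735 in the KO-labelled libraries. Alas2, which makes the first enzyme of heme synthesis in red cells and was picked out after its values were seen, stood at 597, 1501.5 and 679 in WT and at 186, 74.3 and 81.6 in the KO-labelled libraries, a log2 change of -3.01 (adjusted p = 0.00615). Tfrc, Slc25a37, Steap3 and Car2, genes that serve heme synthesis or mark the lineage, did not pass in either direction in the same libraries. The part of either marker group in the values of the 10 genes was not tested.

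**Figure D4:**
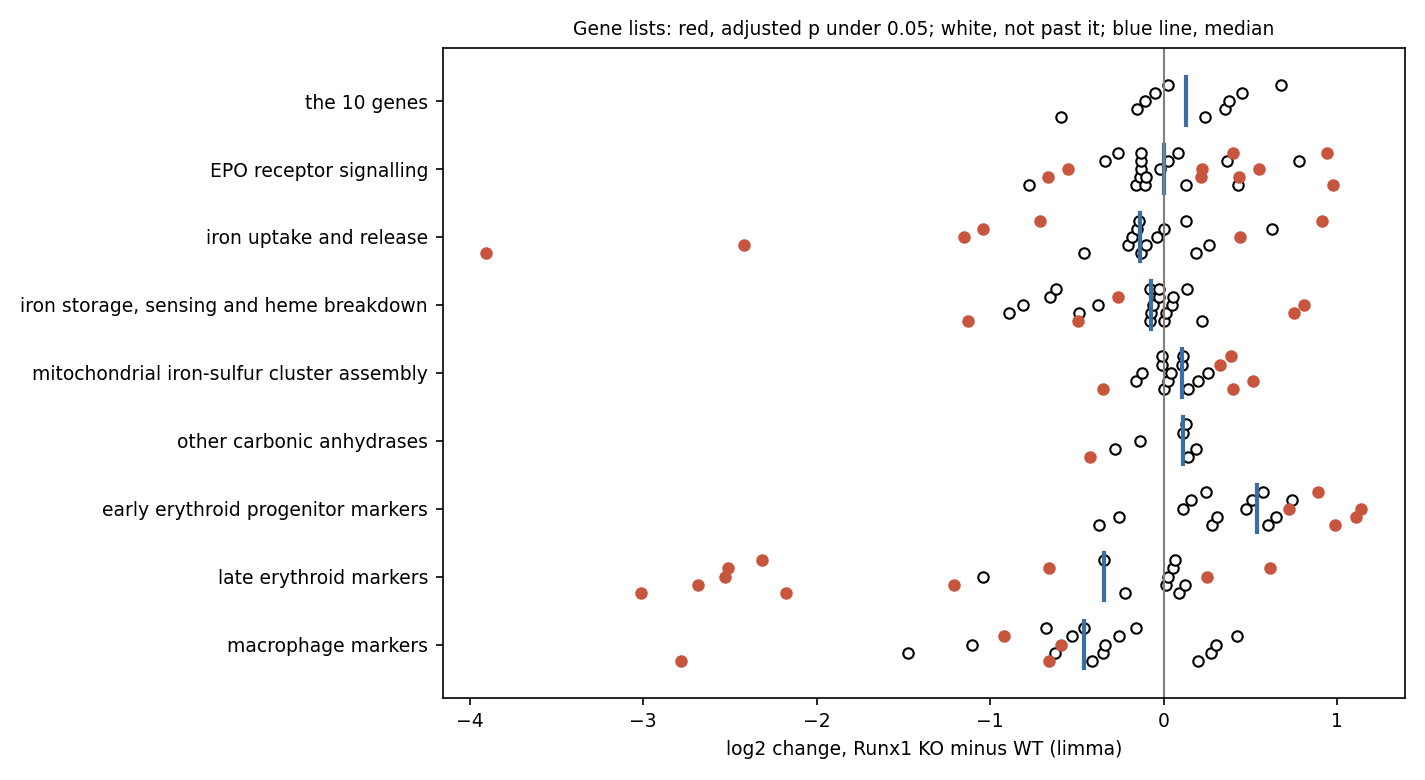
Log2 change (horizontal axis, KO-labelled minus WT, limma) of each tested gene in the 10 genes and in 8 lists, with filled dots past an adjusted p of 0.05, open dots not past it and a vertical bar at each median. The 10 genes hold no filled dot, late erythroid markers reach -3.01 (Alas2), and early erythroid markers have a median of 0.54.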

How the data were processed

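Poly-A selected, stranded RNA libraries were sequenced from 6 samples, per the labels' protocols. Per the submitters' processing notes, HISAT2, HTSeq 0.9.1 and the builds mm10 and GRCm38 were named; the annotation, the strand setting of the counting and the normalization are not given in the sources used here. The deposited values are a signal, read as gene counts divided by a size factor: in each file 100% of the values were whole multiples of 1 step (tolerance 0.001), and the implied factors equalled DESeq2's median-of-ratios factors. These multiples gave the recovered reads.

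The main test was limma 3.58.1 (eBayes with a mean trend) on log2(value + 1) of all 6 libraries, with Benjamini-Hochberg adjustment over 15410 genes that passed filterByExpr (minimum count 10, minimum total 15) and a threshold of 0.05. This was the plan for values that are not counts, and edgeR's count test was to be the main test only for whole counts. Fold changes of weakly expressed genes are understated on this scale. On recovered reads, edgeR 4.0.16, DESeq2 1.42.0 and limma-voom were alternatives, with other scalings, filters, pseudocounts (0.5 and 5), a replicate block and each library left out. A floor of 3 reads marks detection and covers counting error only. With 3 libraries against 3, an exact permutation test cannot go below p = 0.1, so none is given. The test was checked on simulated data.

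The members and lists were chosen with earlier results of these data known. Named were the 10 genes, up to 4 list members past the threshold with the largest change, fixed partners of the 10 (Slc25a28, Ftl1, Aco1, Tfr2, Car3, Car13, Jak2, Stat5a and Stat5b), the 3 genes most like Epor and the 3 most like Car1, and Runx1. Ratios, levels per kilobase and their exon-length alternative, the macrophage sum without Lyz2 and the other genes named were chosen after values were seen.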

Additional observations from a re-analysis of the deposited data

How the results depend on the processing

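With all libraries kept, the counts of the 10 genes called higher and lower were 0 and 0 in limma, 1 and 0 with edgeR, 2 and 1 with DESeq2, 2 and 0 with library totals as scaling, and 1 and 1 with the replicate block in limma and in edgeR (Slc11a2 higher, adjusted p = 0.0309 and 0.0283; Slc40a1 lower, 0.0428 and 0.0459). Leaving out 1 library gave 0 to 3 higher and 0 to 1 lower. Library totals moved the share of calls that are higher from 48.4% of 3370 to 63.5% of 3755, with a median of all genes of 0.08. Leaving out 1 library gave 1349 to 3551 calls over all genes (627 to 1627 higher, 722 to 1924 lower) and 9 to 22 in the pathway lists, against 27. Small changes reversed: Car1 was 0.0353 with library totals and -0.25 to 0.17 with 1 library left out, Tfrc -0.216 to 0.0519, Ireb2 -0.0127 to 0.0623, the Tfrc to Fth1 difference -0.0227 to 0.0895 and that of Slc25a37 to Slc25a28 -0.00638 to 0.289. The cause of these shifts was not tested. The fits without 1 library have fewer samples.

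Deviations of same-numbered libraries correlated with r of 0.287, 0.129 and -0.0104 for numbers 1, 2 and 3, so the numbers were not taken to pair them. Not every library correlated best with its own number: WT replicate 2 and KO-labelled replicate 3 had 0.235. The replicate block gave 3843 calls (1656 higher, 2187 lower) against 3370, and 3106 genes were called in both fits. In the lists, the block called 2 iron-sulfur genes higher in place of 4, without Fdx1 (0.0728), 5 genes of storage and sensing lower in place of 3, and 1 late erythroid marker higher in place of 2.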

Other observations

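Of 17 tested genes of mitochondrial iron-sulfur cluster assembly, which uses the iron that mitoferrins import, 4 passed higher and 1 lower in limma, where 10.6% of all genes passed higher and 11.3% lower, with a median log2 change of 0.11. Iba57, a late assembly factor, rose by 0.51, Gfer by 0.40 and the ferredoxin gene Fdx1 by 0.39, while Nfu1, a carrier of finished clusters, fell by 0.35. Iba57 and Gfer kept their calls only without KO-labelled replicate 1 (adjusted p otherwise 0.0522 to 0.110 and 0.0556 to 0.129), and Nfu1 lost its call without KO-labelled replicate 2 (0.0509). The call of Fdx1 was lost in each of the 6 fits that left out 1 library (adjusted p from 0.0685 to 0.113).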
